A study of Homo sapiens with 12 samples.

Results

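The 10 genes described here make up the core of the cytosolic heat shock chaperone system: the transcription factor HSF1, the HSP70 genes HSPA1A, HSPA1B and HSPA8, the HSP110 gene HSPH1, the J-domain gene DNAJB1, the cofactor BAG3, the HSP90 genes HSP90AA1 and HSP90AB1, and the small heat shock protein gene HSPB1. They were taken by symbol from a table of 57773 genes, and all 10 were found. The study grew U87, an established human glioblastoma line, in serum-containing medium, in a parental form and in a form with acquired resistance to JQ1. Each line received DMSO, 1000 nM JQ1 or 1000 nM dBET6 for 24 h, with 2 RNA-seq libraries of polyadenylated RNA in each of the 6 groups (12 libraries). JQ1 displaces BET bromodomain proteins from acetylated chromatin, and dBET6 joins a ligand of the same kind to a cereblon ligand, so that BET proteins are ubiquitinated and degraded. The labels do not say how the resistance was raised, whether the resistant line is 1 clone, or whether the libraries of a group came from separate cultures, so the p-values speak of the variation among the sequenced libraries, which may be technical.

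Heat shock proteins keep other proteins folded. Under protein stress HSF1 is released from chaperones, forms trimers and binds heat shock elements, repeats of the unit nGAAn in alternating orientation, in front of the inducible HSP70, HSP40, HSP90 and small heat shock protein genes. HSP70 works in a cycle with J-domain proteins, which deliver substrates and trigger ATP hydrolysis, and with exchange factors such as HSP110 and BAG proteins, and HSP90 takes over a part of its clients. Tumour cells often express these chaperones at a high level.

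For 9 of the 10 genes a promoter window, from 250 bases before to 50 bases after the start site, was read from RefSeq (GRCh38.p14). Windows were searched for the 8-letter words GAANNTTC and TTCNNGAA, which hold 2 inverted heat shock units and read the same on both strands, and for GAANNTTCNNGAA and its reverse complement TTCNNGAANNTTC, which hold 3 units and contain the shorter words. Of 27305 windows, 13.7% held a 2-unit word and 0.487% a 3-unit word. HSPA1A, HSPA1B and HSPB1 each had 1 match to GAANNTTC, beginning 106, 105 and 182 bases before the start. HSPA8 had both 3-unit words, GAANNTTCNNGAA beginning 230 and TTCNNGAANNTTC 55 bases before the start. The stretches around these matches are shown because they hold all matches to these words in the 9 windows. The matches are of letters alone. Whether HSF1 binds them, and whether they bear on the levels of these genes, was not tested. Capitals mark the units, and each stretch is written 5′ to 3′ on the gene's strand.
HSPA1A, chr6:31815393-31815463, plus strand: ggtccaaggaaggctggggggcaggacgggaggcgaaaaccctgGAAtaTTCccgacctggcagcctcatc
HSPA1B, chr6:31827588-31827658, plus strand: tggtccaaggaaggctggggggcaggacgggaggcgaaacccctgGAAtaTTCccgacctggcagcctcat
HSPA8, distal match, chr11:123062347-123062376, minus strand: gggcgagcttGAAagTTCcaGAAcgctgcg
HSPA8, proximal match, chr11:123062172-123062201, minus strand: ggcgggccccTTCtgGAAggTTCtaagata
HSPB1, chr7:76302473-76302522, plus strand: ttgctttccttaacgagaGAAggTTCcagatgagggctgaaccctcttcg
The 250 bases in front of HSPA1A and HSPA1B were 93.6% identical over 251 aligned columns. The windows of HSPH1, DNAJB1, BAG3, HSP90AA1 and HSP90AB1 held none of these 4 words, which says only that these letters are not in these windows. The most abundant measured transcript of DNAJB1 began 10851 bases and that of HSP90AA1 52558 bases from the RefSeq start used, so for these genes the window does not lie at that transcript's start. The distance was 893 bases for HSP90AB1, 804 for HSPA8 and 461 for HSPH1, so their windows do not hold that start either. It was 129 or less for the other 4 genes.

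The libraries held 24732177 to 40388589 estimated counts. The 4 dBET6 libraries stood apart from the 8 others: they were shallower (at most 29041636 counts, against 31346557 or more), their 50 most abundant genes took more of the counts (25.8 to 31% against 12.4 to 18.5%), and mitochondrial mRNA made up more (3.19 to 3.94% against 1.46 to 2.70%). All 7 glioblastoma markers reached an FPKM of 1 in at least 1 library. So did 4 of 6 astrocyte and glial, 3 of 5 neuron, 2 of 5 oligodendrocyte, 2 of 4 epithelial and 2 of 6 leukocyte markers. Of 4 endothelial markers 3 were found, and none of them reached 1. The defining leukocyte marker PTPRC stayed below 1 in every library. The summed leukocyte list was 13.4 to 18.6 in dBET6 libraries against 0.999 to 13.7 in the others, and its part in the results was not tested. In bulk RNA, fewer cells of a type and less RNA per cell cannot be told apart.

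Levels are given as the deposited FPKM, which are per length and can be compared between genes. FPKM summed to between 1711308 and 2298108 in dBET6 libraries and between 649818 and 812174 in the others, so they are not shares of a library. Like the TMM-scaled fold changes from edgeR given below, they are relative to the bulk of genes. As a share of all transcripts (TPM), the 10 genes together fell in the dBET6 libraries between 0.261 and 0.318%, and in the 8 others between 0.471 and 0.657%. The dBET6 rises below are therefore given with their values under total-count scaling and under scaling to mitochondrial mRNA, which moved the median of all genes to -0.65 and -1.78 in parental cells and to -1.14 and -2.12 in resistant cells (log2).

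**Figure D1:**
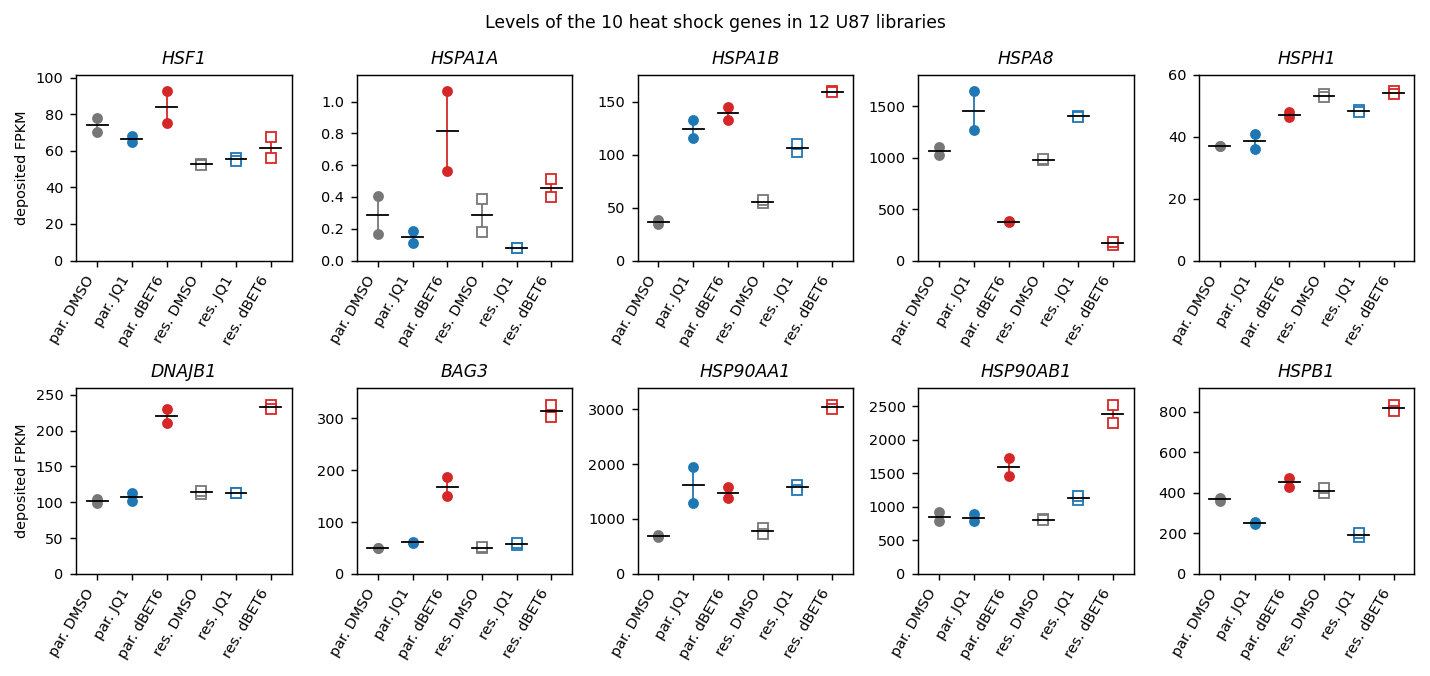
Deposited FPKM (linear axes from 0) of the 10 genes in 6 groups of U87 libraries; each point is 1 library, filled circles parental, open squares JQ1-resistant, black bars the mean of 2, with DMSO grey, JQ1 blue and dBET6 red. HSPA8 was lowest in the 4 dBET6 libraries, between 156 and 388, while BAG3 was highest there, between 150 and 326, relative to the bulk of genes; under mitochondrial scaling BAG3 was not higher in parental cells.

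With dBET6, relative to the bulk of genes, most of the 10 mRNAs were higher and that of HSPA8 was lower. In parental cells 7 of the 10 genes rose and 1 fell (background: 37% of 19093 genes tested higher and 39.3% lower, adjusted p under 0.05 in edgeR's quasi-likelihood test). In resistant cells 6 rose and 1 fell (background 35.7% and 39.5%). The median log2 fold change of the 10 was 0.94 and 0.97, against -0.01 and -0.06 over all genes. With total-count scaling the split in parental cells was 5 higher and 4 lower (23.3% and 52.7% of all genes at that scaling) and in resistant cells 4 higher and 4 lower (17.3% and 59.6%). With mitochondrial scaling it was 0 higher (0 also at an unadjusted p under 0.05, edgeR) and 7 lower in parental cells (9.28% and 72% of all genes) and 1 higher and 8 lower in resistant cells (7.27% and 74.1%), so the numbers lower are near the share of all genes. HSPA8 was the gene that fell, and it did so under every scaling.

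With JQ1 the movements were fewer. In parental cells 5 of 10 rose and 1 fell (background 22.8% and 26.1%), with a median of 0.14 against 0.01 over all genes. In resistant cells 4 rose and 2 fell (background 20.8% and 23.1%), with a median of 0.13, which is the same with HSPA1A set at the limit of 3 counts per library. One of those 2 is HSPA1A, which has no usable fold, as given below. With total counts the numbers were 3 higher and 1 lower in parental cells (18% and 31.4% of all genes) and 4 higher and 4 lower in resistant cells (12.8% and 32.5%). With mitochondrial scaling they were 2 and 2 (8.15% and 29.8%), and 1 and 5 (3.12% and 43.6%).

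**Figure D2:**
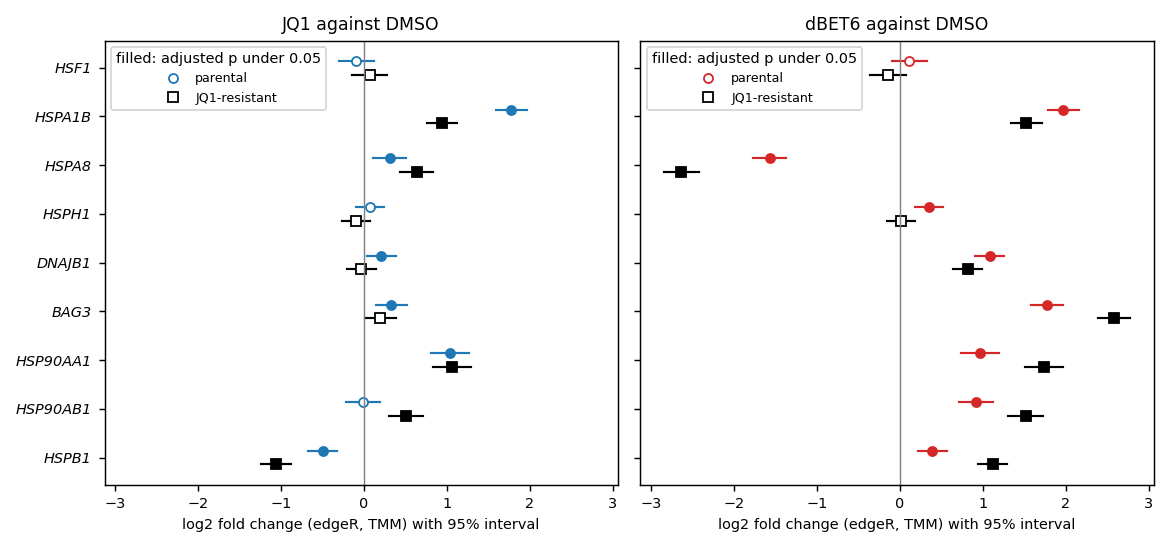
Log2 fold change (edgeR, TMM scaling, so relative to the bulk of genes) of 9 genes for JQ1 (left) and dBET6 (right) against DMSO, coloured circles parental and black squares resistant, bars 95% intervals and filled symbols adjusted p under 0.05; HSPA1A is left out for its near-zero counts. HSPA8 lay at 0.31 and 0.63 with JQ1 and at -1.57 and -2.64 with dBET6; under mitochondrial scaling the dBET6 values above 0 turned below it for all but HSPA1B in parental and BAG3 in resistant cells.

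HSF1, the master regulator of the heat shock response, did not pass the test with either compound relative to the bulk of genes, and its dBET6 value depended on the scaling. Its FPKM was 70.4 and 78.2 in parental DMSO, 68.3 and 64.8 with JQ1 and 92.5 and 75.4 with dBET6. In resistant cells it was 53.1 and 52.1 in DMSO, 56.1 and 54.5 with JQ1 and 67.4 and 56.1 with dBET6. The resistant DMSO and JQ1 libraries all lay below the parental ones, while the dBET6 libraries of each line lay further apart from each other. The 4 comparisons with DMSO that did not pass had log2 fold changes of -0.09 (95% interval -0.31 to 0.12) and 0.11 (-0.10 to 0.33) for JQ1 and dBET6 in parental cells and 0.07 (-0.15 to 0.28) and -0.14 (-0.36 to 0.07) in resistant cells. HSF1 was called lower with dBET6 under total counts (-0.53 and -1.22) and mitochondrial scaling (-1.68 and -2.21). In parental dBET6 cells it was instead called higher with RLE size factors in edgeR (0.24, adjusted p = 0.035) and by DESeq2 (0.24, adjusted p = 0.0421). In resistant dBET6 cells it was called lower with no filter on low counts (-0.36, adjusted p = 0.000498, edgeR) and without resistant dBET6 replicate 1 (-0.31, adjusted p = 0.0368, edgeR), while the deposited FPKM gave 0.22 by limma. In resistant dBET6 cells the protein-coding transcript ENST00000528838 made up 41.8 and 47.7% of HSF1 TPM, against 70 and 70.2% in DMSO. A retained-intron transcript of 493 bases made up 25.6 and 18.6%, against 9.3 and 9.0%. Whether these shares bear on the FPKM value was not tested. The lines themselves differed: in DMSO, HSF1 was lower in resistant cells by -0.53 ± 0.10 (SE, log2; adjusted p = 0.000205, edgeR), and it was lower under every scaling tried.

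HSPA1B, one of the pair of strongly inducible HSP70 genes, rose with both compounds in both lines relative to the bulk of genes. In parental cells its FPKM was 34.6 and 38.0 in DMSO, 116 and 133 with JQ1 and 145 and 133 with dBET6. The resistant cells had 54.4 and 57.3, then 102 and 111 with JQ1 and 160 in both dBET6 libraries. By FPKM no treated library overlapped a DMSO library. In resistant cells the mean TPM was 69.6 with dBET6 against 84.9 in DMSO. With JQ1 the rise was 3.43-fold in parental (log2 1.78 ± 0.09, adjusted p = 5.29e-15, edgeR) and 1.92-fold in resistant cells (0.94 ± 0.09, adjusted p = 1.16e-09). With dBET6 it was 3.91-fold (1.97 ± 0.09) and 2.88-fold (1.53 ± 0.09). Total-count scaling gave 1.66 and 0.75 for JQ1 and 1.33 and 0.45 for dBET6, all still called, whereas mitochondrial scaling gave 0.19 for dBET6 in parental cells, which did not pass, and -0.54 in resistant cells, the opposite direction. Under that scaling the JQ1 rise in resistant cells did not pass either (0.37, adjusted p = 0.121, edgeR). Untreated resistant cells had more HSPA1B than parental cells, by 0.63 ± 0.09 (adjusted p = 1.78e-06), and 0.37 without passing under mitochondrial scaling.

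HSPA1A, the near-identical neighbour of HSPA1B, was close to 0 in every library. Its FPKM lay between 0.0788 and 1.06, and its estimated counts between 0 and 59.5. Both resistant JQ1 libraries had 0 counts from the transcripts that could be paired with the gene, while the deposited FPKM was 0.0788 and 0.08 there, so the gene was rebuilt incompletely and no result is drawn from its fitted folds. Of the 31-letter words of HSPA1A's transcripts, 73.6% also occur in HSPA1B, so reads of the pair can be divided between them by the counting and the low level of HSPA1A is uncertain. Adding the counts of both genes left the HSPA1B results in place: 1.77 and 1.96 for JQ1 and dBET6 in parental cells, 0.93 and 1.52 in resistant cells. HSPA1B shared 0 such words with HSPA8.

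HSPA8, which encodes the constitutive HSP70 (HSC70) that also uncoats clathrin vesicles, moved in opposite directions with the 2 compounds. In parental cells its FPKM was 1023 and 1105 in DMSO, 1273 and 1646 with JQ1 and 371 and 388 with dBET6. In resistant cells it was 976 and 986, then 1407 and 1401, then 156 and 179. The dBET6 libraries lay below all others, and the resistant ones below the parental ones. With dBET6 it fell 2.97-fold in parental cells (log2 -1.57 ± 0.10, adjusted p = 3.82e-14, edgeR) and 6.22-fold in resistant cells (-2.64 ± 0.10, adjusted p = 1.45e-18). The fall was larger with total counts (-2.21 and -3.71) and with mitochondrial scaling (-3.34 and -4.70). With JQ1 it rose by 0.31 ± 0.10 in parental and 0.63 ± 0.10 in resistant cells (adjusted p = 0.0088 and 3.69e-06). The parental JQ1 rise was lost with total counts (0.19), without parental DMSO replicate 2 (0.22) and without parental JQ1 replicate 2 (0.19), and under mitochondrial scaling it was 0.026 in parental and 0.059 in resistant cells.

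Several HSPA8 transcripts contributed to that level. ENST00000227378, a protein-coding model of 2186 bases, made up 37.3 and 39.3% of HSPA8 TPM in parental DMSO and 34.1 and 36.4% with dBET6, and in resistant cells 37.1 and 38.9% against 25.6 and 30.0%. ENST00000534624, a protein-coding model of 2463 bases, made up 31.05 and 16.95% in parental DMSO. The short processed transcript ENST00000533238, of 465 bases, made up 29.4 and 41.9% in parental DMSO and 32.8 and 42.0% with dBET6. TPM is per length, and this short transcript held 2411 and 3670 of the 61147 and 51482 estimated counts of HSPA8 in parental DMSO. Differences between transcripts were not tested. The 17 annotated HSPA8 pseudogenes together held at most 0.159% of the FPKM of gene and pseudogenes.

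HSPH1, the HSP110 nucleotide exchange factor for HSP70, was higher in resistant cells in every group by FPKM, and its dBET6 value depended on the scaling. Its FPKM was 36.8 and 37.1 in parental DMSO, 36.1 and 40.9 with JQ1 and 46.2 and 48.0 with dBET6, and 53.6 and 52.7, 48.7 and 48.1, and 54.6 and 53.7 in the same order in resistant cells. By FPKM all 6 resistant libraries lay above all 6 parental ones, the closest being resistant JQ1 (48.07) and parental dBET6 (47.99). By mean TPM resistant cells were higher in DMSO and JQ1 but lower with dBET6, at 23.5 against 27.3. The lines were not tested against each other within a compound. In DMSO the resistant line was higher by 0.53 ± 0.08 (adjusted p = 7.88e-06, edgeR), and by 0.28 without passing under mitochondrial scaling. With dBET6 HSPH1 rose by 0.36 ± 0.08 in parental cells (adjusted p = 0.000352), but was called lower with total counts (-0.28) and mitochondrial scaling (-1.41). In resistant cells the value was 0.01 ± 0.08 (adjusted p = 0.893), with an interval of -0.16 to 0.18, but it was called lower with total counts (-1.06) and mitochondrial scaling (-2.06) and higher with RLE size factors (0.19, adjusted p = 0.0418, edgeR). Neither JQ1 comparison passed (0.07 and -0.10), though the resistant one was called lower with total counts (-0.29) and mitochondrial scaling (-0.68).

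DNAJB1, the HSP40 protein that activates HSP70, was higher with dBET6 relative to the bulk of genes. Its FPKM was 104 and 98.5 in parental DMSO, 101 and 113 with JQ1 and 230 and 210 with dBET6. The resistant values were 112 and 116, then 113 and 112, then 236 and 231. By FPKM the 4 dBET6 libraries lay above the 8 others and overlapped none of them. As a share of all transcripts the order was the reverse: TPM was at most 132.2 in the 4 dBET6 libraries and at least 133.6 in the 8 others. The dBET6 rise was 2.12-fold in parental (1.08 ± 0.09, adjusted p = 7.38e-12, edgeR) and 1.76-fold in resistant cells (0.82 ± 0.09, adjusted p = 1.75e-09). With total counts it was 0.44 in parental and -0.26 in resistant cells, and with mitochondrial scaling -0.69 and -1.25. The parental JQ1 value of 0.21 ± 0.09 sat at the threshold (adjusted p = 0.0451), and it did not pass without any 1 of 9 of the 12 libraries, the exceptions being parental JQ1 replicate 1 and both parental dBET6 libraries, nor with total counts (0.090). In resistant cells the JQ1 value was -0.03 and did not pass, and was called lower with total counts (-0.23) and mitochondrial scaling (-0.61). In DMSO it was higher in resistant cells by 0.33 ± 0.09 (adjusted p = 0.00313), which did not pass without resistant DMSO replicate 2 (0.28), under mitochondrial scaling (0.081) or on the deposited FPKM (0.17).

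BAG3, a stress-induced exchange factor that links HSP70 to small heat shock proteins and to selective autophagy, showed the highest dBET6 fold of the 9 genes with usable counts in resistant cells. Its FPKM was 48.9 and 49.0 in parental DMSO, 61.3 and 59.7 with JQ1 and 187 and 150 with dBET6. In resistant cells it was 49.7 and 51.5, then 56.1 and 59.5, then 326 and 302. Each dBET6 library was above every other library, and each resistant dBET6 library above each parental one. The rise with dBET6 was 3.42-fold in parental (1.78 ± 0.09, adjusted p = 1.02e-15, edgeR) and 5.98-fold in resistant cells (2.58 ± 0.10, adjusted p = 6.07e-19). It stayed called with total counts (1.13 and 1.51), while mitochondrial scaling gave -0.0072 in parental and 0.51 in resistant cells, the second still called. With JQ1 the rise was 0.33 ± 0.09 in parental cells (adjusted p = 0.00398), which did not pass without parental JQ1 replicate 1 (0.27) or under mitochondrial scaling (0.019), and the value in resistant cells was 0.19 ± 0.09 (adjusted p = 0.0878).

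HSP90AA1 encodes the inducible HSP90 alpha and was the most abundant of the 10 mRNAs per length in resistant dBET6 cells and with JQ1 in both lines. Its FPKM was 711 and 666 in parental DMSO, 1295 and 1941 with JQ1 and 1377 and 1581 with dBET6. In resistant cells it was 827 and 732, then 1627 and 1530, then 3083 and 3006. By FPKM, parental JQ1 and dBET6 libraries overlapped, while the resistant dBET6 libraries lay well above all others. The mean TPM in resistant cells was instead lower with dBET6 (1325) than with JQ1 (2010). JQ1 raised it 2.06-fold in parental and 2.09-fold in resistant cells (1.04 ± 0.11 and 1.06 ± 0.11, adjusted p = 2.95e-08 and 2.74e-08, edgeR), and all scalings kept both rises (0.92 and 0.87 with total counts, 0.77 and 0.48 with mitochondrial scaling). dBET6 raised it 1.95-fold in parental and 3.33-fold in resistant cells (0.97 ± 0.11 and 1.74 ± 0.11). Those values were 0.33 and 0.66 with total counts and -0.79 and -0.33 with mitochondrial scaling.

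HSP90AB1, the largely constitutive HSP90 beta, did not follow its paralog with JQ1 in parental cells. Its FPKM was 924 and 784 in parental DMSO, 786 and 894 with JQ1 and 1735 and 1455 with dBET6, and 817 and 803, 1098 and 1165, and 2256 and 2523 in the resistant groups. By FPKM, parental DMSO and JQ1 libraries overlapped and the 4 dBET6 libraries lay above the others. The mean TPM with dBET6 (924 in parental and 1041 in resistant cells) was instead below that in DMSO (1260 and 1233). With JQ1 the value was -0.01 ± 0.10 in parental cells (interval -0.22 to 0.19, adjusted p = 0.934, edgeR) and 0.50 ± 0.10 in resistant cells (adjusted p = 0.000146; -0.075 under mitochondrial scaling). With dBET6 it rose 1.88-fold in parental (0.91 ± 0.10, adjusted p = 4.24e-09) and 2.86-fold in resistant cells (1.52 ± 0.10, adjusted p = 1.38e-13), with 0.27 and 0.44 under total counts and -0.86 and -0.55 under mitochondrial scaling. The transcripts of HSP90AA1 and HSP90AB1 shared no 31-letter word, and the annotated pseudogenes of either held at most 0.0535% of its FPKM.

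HSPB1 encodes HSP27, a small heat shock protein that holds unfolded proteins without ATP, and it fell with JQ1. Its FPKM was 359 and 375 in parental DMSO, 255 and 245 with JQ1 and 473 and 428 with dBET6. The resistant values were 397 and 423, then 180 and 203, then 834 and 805. Within each line JQ1 libraries lay below and dBET6 libraries above DMSO by FPKM, with no overlap. The mean TPM with dBET6 (261 in parental and 357 in resistant cells) was instead below that in DMSO (541 and 624). JQ1 lowered it by -0.50 ± 0.09 in parental and -1.06 ± 0.09 in resistant cells (log2; adjusted p = 2.09e-05 and 1.06e-10, edgeR), and it was lower under every scaling. With dBET6 it rose by 0.39 ± 0.09 and 1.12 ± 0.09 (adjusted p = 0.000193 and 3.34e-12). Total counts gave -0.25 and 0.041 for these, and mitochondrial scaling -1.39 and -0.95.

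**Figure D3:**
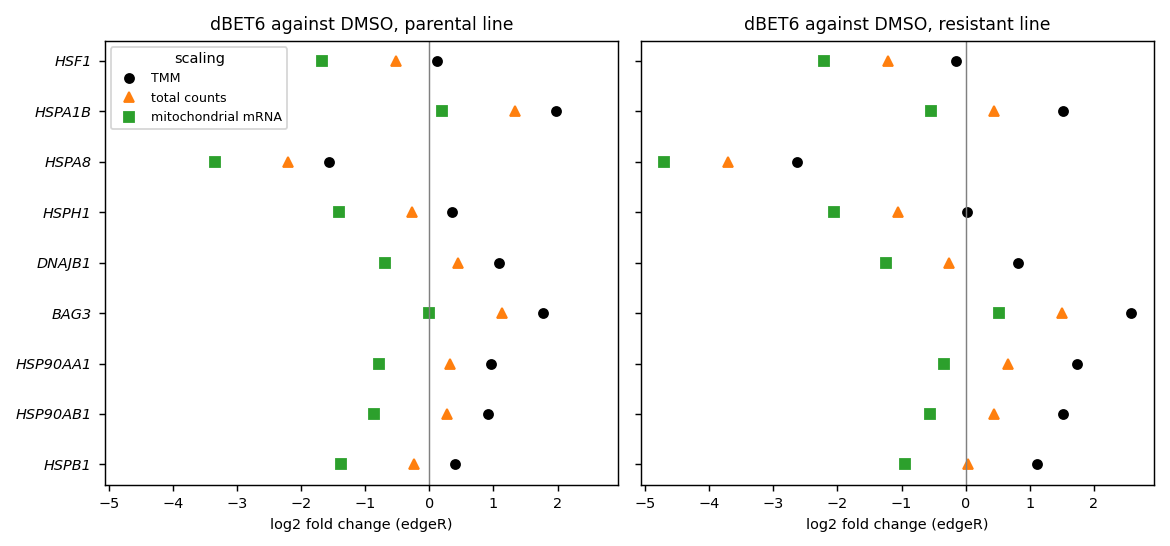
Log2 fold change of 9 genes for dBET6 against DMSO (edgeR) in parental (left) and resistant cells (right), with library scaling by TMM (black circles), total counts (orange triangles) or mitochondrial mRNA (green squares). HSPA8 was lower under all 3, from -1.57 to -4.70, while most genes to the right of 0 under TMM lay to its left under mitochondrial scaling.

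JQ1 and dBET6 were both used at 1000 nM for 24 h, and they were compared with each other at that concentration and time, 2 comparisons in all, 1 in each line. Whether an equal concentration of the inhibitor and the degrader acts on BET proteins to an equal extent was not measured. In parental cells 7 of 10 genes were higher with dBET6 than with JQ1 and 1 was lower (background 36.2% and 38.4%). In resistant cells the numbers were again 7 and 1 (background 35.4% and 38.8%). HSPA1A is among the 7 in both lines, but its counts are near 0 and no result is drawn from its fold in either. HSPA8 differed most among the 9 others, by -1.88 ± 0.10 in parental and -3.27 ± 0.10 in resistant cells (adjusted p = 1.34e-15 and 6.31e-20, edgeR), and BAG3 was higher with dBET6 by 1.45 ± 0.09 and 2.39 ± 0.09. For BAG3, total counts gave 0.93 and 1.51 and mitochondrial scaling -0.026 and 0.90. HSPB1 was higher by 0.89 ± 0.09 and 2.18 ± 0.09, with 0.37 and 1.30 under total counts and -0.58 and 0.69 under mitochondrial scaling. HSP90AB1 was higher by 0.92 ± 0.10 and 1.01 ± 0.10, with 0.40 and 0.13 under total counts, the second not passing, and -0.56 and -0.48 under mitochondrial scaling. DNAJB1 was higher by 0.87 ± 0.09 and 0.85 ± 0.09, with 0.35 and -0.031 under total counts and -0.61 and -0.64 under mitochondrial scaling. HSP90AA1 did not pass in parental cells (-0.07, interval -0.30 to 0.15) and was higher by 0.67 ± 0.11 in resistant cells; total counts gave -0.59 and -0.21 and mitochondrial scaling -1.57 and -0.81. HSF1 passed in neither line (0.21 and -0.21), and was called lower in both with total counts (-0.32 and -1.09) and mitochondrial scaling (-1.27 and -1.70); with RLE size factors it was called higher in parental cells (0.33). HSPA1B was higher by 0.19 in parental cells at the threshold (adjusted p = 0.0473), a call lost without any 1 of 11 of the 12 libraries, the exception being parental dBET6 replicate 2, and by 0.59 ± 0.09 in resistant cells; both values turned with total counts, to -0.33 and -0.30, and with mitochondrial scaling, to -1.29 and -0.91. HSPH1 was higher by 0.29 ± 0.08 in parental cells, which did not pass without parental JQ1 replicate 1 (0.16) and turned to -0.23 with total counts; in resistant cells it did not pass (0.11) and turned to -0.77. Under mitochondrial scaling HSPH1 lay at -1.19 and -1.38. Total counts left 5 higher and 5 lower in parental cells (24.2% and 49.5% of all genes) and 3 higher and 4 lower in resistant cells (19.4% and 54.8%). Mitochondrial scaling left 1 higher and 8 lower (10% and 66.6%), and 3 higher and 7 lower (10.6% and 63.4%), so the numbers lower are again near the share of all genes.

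Without a compound, 4 of the 10 genes differed between the lines. In DMSO 3 of 10 were higher in resistant cells and 1 lower (background 17.4% and 21.2%), namely HSPA1B, HSPH1 and DNAJB1 up and HSF1 down, as given above. The median of the 10 was 0.11 against 0.00442 over all genes. HSP90AA1, at 0.24 ± 0.11, had an adjusted p of 0.088 by edgeR, and passed without parental DMSO replicate 1 (0.40). HSPA8 (-0.12), BAG3 (0.084), HSP90AB1 (-0.05) and HSPB1 (0.13) did not pass. With edgeR under mitochondrial scaling 0 were higher (0 also at an unadjusted p under 0.05; 5.14% of all genes), and with total counts 5 were (20.9% of all genes).

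**Figure D4:**
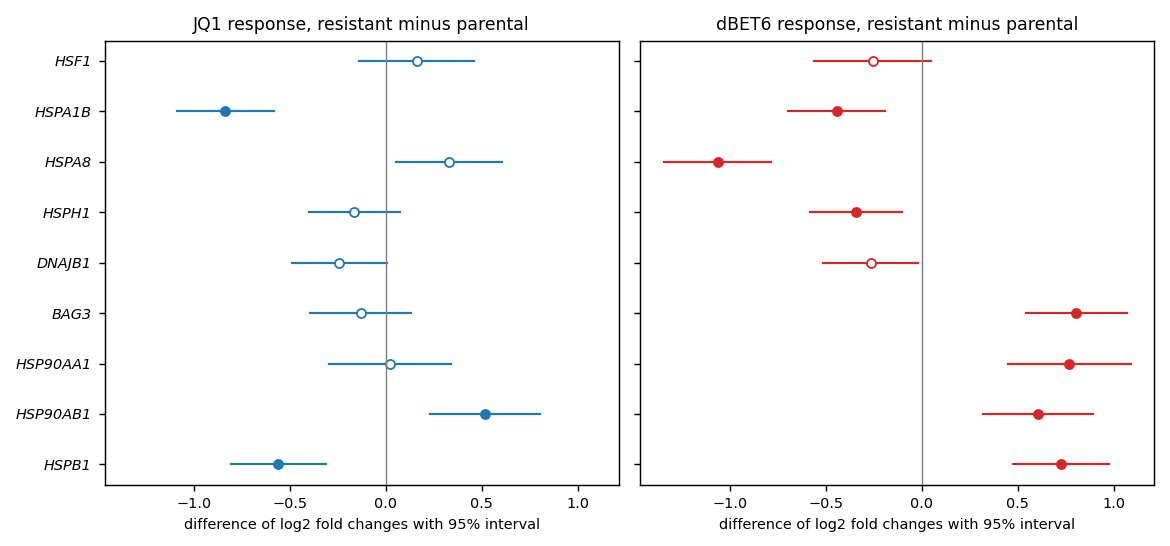
Difference between the lines in the response to JQ1 (left) and dBET6 (right), resistant minus parental, as log2 (edgeR, TMM scaling) with 95% intervals for 9 genes; filled symbols have an adjusted p under 0.05. For dBET6, BAG3, HSP90AA1, HSPB1 and HSP90AB1 lay between 0.60 and 0.81 and HSPA8 at -1.07; under mitochondrial scaling HSPA8 is the 1 that passed.

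Whether a compound acted differently in resistant cells was tested as the difference of the 2 log2 fold changes. For JQ1, 1 of 10 differences was higher and 2 lower (background 3.62% and 2.88%). HSPA1B responded less in resistant cells, by -0.84 ± 0.12 (adjusted p = 5.59e-05, edgeR), and this was called with total counts (-0.91), mitochondrial scaling (-1.11) and the deposited FPKM (-0.83). HSPB1 fell further in resistant cells, by -0.56 ± 0.12 (adjusted p = 0.00444), which did not pass without resistant DMSO replicate 2 (-0.50), under mitochondrial scaling (-0.82) or on the deposited FPKM (-0.54, adjusted p = 0.0522 by limma). HSP90AB1 responded more, by 0.52 ± 0.14 (adjusted p = 0.0245), which was lost without parental DMSO replicate 1, parental JQ1 replicate 1, either resistant DMSO library or resistant JQ1 replicate 2, and under mitochondrial scaling (0.22) and on the deposited FPKM (0.50). The other values did not pass, with HSF1 at 0.16, HSPA8 at 0.33, HSPH1 at -0.16, DNAJB1 at -0.24, BAG3 at -0.13 and HSP90AA1 at 0.021. The median of the 10 was -0.15 against -0.00081 over all genes. With mitochondrial scaling 0 of the 10 were higher in edgeR (0 also at an unadjusted p under 0.05). Only 0.304% of all genes were higher at that scaling, so a number of 0 says little about the 10.

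For dBET6, 4 of 10 differences were higher and 3 lower (background 13.7% and 14.2%), with a median of -0.26 against -0.05. BAG3 rose more in resistant cells, by 0.81 ± 0.13 (adjusted p = 2.62e-05, edgeR), as did HSP90AA1 by 0.77 ± 0.16, HSPB1 by 0.72 ± 0.12 and HSP90AB1 by 0.60 ± 0.14. HSPA8 fell further, by -1.07 ± 0.14 (adjusted p = 1.43e-06), and this was called under every scaling (-1.5 with total counts, -1.37 with mitochondrial scaling). HSPA1B rose less, by -0.44 ± 0.12 (adjusted p = 0.00748), which did not pass without parental DMSO replicate 1 (-0.35) or resistant DMSO replicate 2 (-0.40). HSPH1 differed by -0.34 ± 0.12 (adjusted p = 0.0277), a call lost when any of 8 libraries was left out, including all 4 DMSO libraries. HSF1 (-0.26) and DNAJB1 (-0.27) did not pass. With total counts BAG3 (0.37) and HSPB1 (0.29) kept a higher call, HSP90AA1 (0.33) and HSP90AB1 (0.17) did not, and 5 differences were lower, as were 34.3% of all genes. With mitochondrial scaling 0 were higher in edgeR (0 also at an unadjusted p under 0.05; 2.03% of all genes) and 1 was lower (12.3%).

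The genes that work around these 10 were taken in 8 lists chosen with earlier results of these data known. Their counts stand against the shares of all genes given above, which for dBET6 were 37% higher and 39.3% lower in parental and 35.7% and 39.5% in resistant cells, and for JQ1 22.8% and 26.1%, and 20.8% and 23.1%. Of the 12 HSP90 cochaperones, with dBET6, 3 rose and 8 fell in parental cells and 3 rose and 9 fell in resistant cells, with medians of -0.40 and -0.73 against -0.01 and -0.06 over all genes. CDC37, which brings kinases to HSP90, rose by 1.54 and 2.23, while PPID, an immunophilin of HSP90 complexes, fell by 3.01 and 3.71 on the log2 scale, and PTGES3 (p23) by 1.43 and 1.95. CDC37 lay at 0.90 and 1.15 with total counts and at -0.24 and 0.16 with mitochondrial scaling. With JQ1 4 rose and 3 fell in parental and 5 rose and 3 fell in resistant cells, with FKBP4 at -0.58 and -0.56 and PPP5C at -0.77 and -0.67.

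Of the 7 HSP70 cofactors, 3 rose and 2 fell with dBET6 in parental cells and 2 rose and 4 fell in resistant cells. BAG2, an inhibitor of the ubiquitin ligase CHIP, fell by 2.60 and 3.68 on the log2 scale and BAG4 by 0.88 and 1.99, in contrast to BAG3, whereas ST13 (HIP) rose by 0.67 and 1.08 and was near 0 with total counts (0.039 and 0.0049) and at -1.09 and -0.99 with mitochondrial scaling. STUB1, which encodes CHIP, rose with JQ1 by 0.76 and 0.75. Of 8 J-domain genes, 3 rose and 3 fell with dBET6 in parental and 2 rose and 3 fell in resistant cells. DNAJA4 rose by 3.65 and 3.80, from FPKM means of 0.165 and 0.102 to 2.21 and 1.73, with 3.02 and 2.73 under total counts and 1.90 and 1.78 under mitochondrial scaling. DNAJA2 fell by 1.86 and 2.21 and DNAJC7 by 1.17 and 0.94. DNAJC7 also fell with JQ1, by 0.94 and 0.76.

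Among 6 other cytosolic HSP70 and HSP110 genes, 2 rose and 2 fell with dBET6 in parental cells and 1 rose and 4 fell in resistant cells. HSPA6, a strictly inducible HSP70, rose by 1.85 and 2.71, at a low level (FPKM means 0.518 to 1.84 and 0.235 to 1.55), with 1.22 and 1.64 under total counts and 0.087 and 0.64 under mitochondrial scaling. HSPA14 fell (-1.93 and -2.50). With JQ1 HSPA4L, an HSP110 relative, rose by 1.72 and 1.09. In the HSF family HSF2 fell with dBET6 (-1.74 and -2.79), and HSBP1, a negative regulator of HSF1, rose by 0.91 and 1.41, or 0.28 and 0.33 with total counts and -0.85 and -0.66 with mitochondrial scaling. Of 7 small heat shock protein genes 4 could be tested: with dBET6 1 rose and 2 fell in parental and 3 rose and 1 fell in resistant cells. HSPB6 rose by 1.77 and 3.22, with 1.13 and 2.15 under total counts and -0.018 and 1.16 under mitochondrial scaling. CRYAB rose by 2.14 in resistant cells, or 1.06 with total counts and 0.078 with mitochondrial scaling. Its dBET6 response there exceeded the parental one by 2.16 (adjusted p = 0.00194, edgeR), or by 1.72 and 1.86 under these scalings.

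The TRiC chaperonin folds actin and tubulin. Of its 8 subunits 4 rose and 3 fell with dBET6 in parental cells and 4 rose and 4 fell in resistant cells, near the shares of all genes. CCT2 fell by 1.14 and 1.18, and CCT7 rose by 0.54 and 0.74 but lay at -0.10 and -0.34 with total counts and at -1.23 and -1.33 with mitochondrial scaling. Of 13 chaperones of the endoplasmic reticulum and mitochondria, 7 rose and 3 fell with dBET6 in parental and 6 rose and 5 fell in resistant cells. HSPA5 (BiP) rose by 2.04 and 1.63, with 1.40 and 0.55 under total counts and 0.27 and -0.44 under mitochondrial scaling, and the collagen chaperone SERPINH1 fell by 3.71 and 3.67.

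Over the 6 group means of log2 CPM, 9 of the 10 genes (HSPA1A was too low) did not share 1 pattern, as a description of groups that share their scaling. BAG3 ran with HSP90AB1 (Pearson r = 0.963) and DNAJB1 (0.956), and against HSPA8 (-0.962). HSPA1B was closest to HSP90AA1 among the 9 (0.899). Among 8470 protein-coding genes, those most like HSPA8 were MTERFD1 (0.998), MARK3 (0.998) and CXXC1 (0.998), those most like BAG3 were FBXO10, NENF and OST4 (0.998 to 0.999), and those most like HSPA1B were FADS3 (0.997), SYAP1 (0.993) and ATRN (0.992). HSP90AA1 was most like UCP2 (0.994) and HSF1 most like ASB6 (0.993). With 6 points, correlations this high were reached by many genes: DNAJB1 was the gene ranked 536 for BAG3.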

How the data were processed

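RNA-seq of polyadenylated RNA from 12 U87 libraries was analysed. The authors deposited, per library, kallisto estimated counts and TPM per transcript, and 1 table of FPKM per gene; kallisto, DESeq2 and hg19 are named in the submitters' processing notes, and how the deposited FPKM were scaled is not given in the sources used here. Of 196354 transcripts, 92.1% were paired with genes through GENCODE 29, holding 94.7 to 96.2% of the counts per library. Estimated counts were summed per gene, rounded and fitted with edgeR 4.0.16 (TMM, filterByExpr, quasi-likelihood, 12 libraries in 1 fit, 6 residual degrees of freedom, 19093 genes), with 9 comparisons, Benjamini-Hochberg adjustment over all genes tested and a threshold of 0.05. The test was tried on simulated counts. The biological coefficient of variation was 7.88%. Promoter sequences came from RefSeq (GRCh38.p14).

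The 10 genes and the lists were chosen with earlier results of these data known. By rule the text names the 10 in each comparison (HSPA1A, with near-zero counts, without folds except where a sign change must be listed), of each list at most 3 members with the smallest p in each comparison, and the 3 genes with the most similar group means. Alternatives were RLE and DESeq2 1.42.0, total counts, mitochondrial mRNA scaling, no filter, limma 3.58.1 on log2(FPKM + 1) or log2(FPKM + 0.1), a replicate block, summed HSPA1A and HSPA1B, the compared libraries alone, and leaving out each library.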

Additional observations from a re-analysis of the deposited data

Results flagged for a closer look

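The results below are those in which the response to a compound differed between the parental and the JQ1-resistant line by a test of the difference itself (edgeR's quasi-likelihood test, adjusted over all genes tested). For JQ1, resistant minus parental on the log2 scale, HSPA1B differed by -0.84, HSP90AB1 by 0.52 and HSPB1 by -0.56. For dBET6, HSPA1B differed by -0.44, HSPA8 by -1.07, HSPH1 by -0.34, BAG3 by 0.81, HSP90AA1 by 0.77, HSP90AB1 by 0.60 and HSPB1 by 0.72. Among those listed, only the HSPA1B difference for JQ1 and the HSPA8 difference for dBET6 kept their call under mitochondrial scaling. Several others were also lost when single libraries were left out, as given above. HSPB1 had a lower JQ1 and a higher dBET6 response in resistant cells, and both differences share the DMSO libraries.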

How the results depend on the processing

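The fall of HSPA8 with dBET6 in both lines (-4.70 to -1.45 over all alternatives), its further fall in resistant cells (-1.5 to -0.96), the JQ1 rise of HSP90AA1, the JQ1 fall of HSPB1, the lower HSF1 in untreated resistant cells and the smaller JQ1 response of HSPA1B in resistant cells kept direction and call under all 23 alternatives. So did the JQ1 rise of HSPA1B in parental cells (1.48 to 1.86) and the dBET6 rise of BAG3 in resistant cells (0.51 to 2.76). In resistant cells BAG3 (0.90 to 2.58) and HSPB1 (0.69 to 2.37) also stayed higher with dBET6 than with JQ1. The call or direction of the other dBET6 rises against DMSO depended on the scaling, and the cause was not tested. Over all genes tested, same-numbered libraries did not deviate together (15 correlations, -0.058 to 0.061). A pairing that touches few genes would not show in these correlations. With the replicate block 18 of 18 numbers stayed within 1.5 times. The JQ1 rise of DNAJB1 in parental cells lost its call there (0.21, adjusted p = 0.0543, edgeR). Where leaving out a library leaves 1 in a group, that library is assumed to vary like the other groups. In the following, "parental dBET6" and the like stand for that compound against DMSO in that line, "difference" for resistant minus parental, and values are log2 fold changes or numbers of the 10 genes called. Folds of HSPA1A, whose counts are near 0, are listed for completeness and carry no result. Numbers of the 10 genes called stand against the shares of all genes given with each comparison above. A number near its share is no result about the 10. With total counts, the numbers that moved by over 1.5 times came to 3 higher (parental JQ1), 4 lower (parental dBET6), 4 lower (resistant JQ1), 4 lower (resistant dBET6), 5 lower (parental dBET6 against JQ1), 3 higher and 4 lower (resistant dBET6 against JQ1), 5 higher (lines in DMSO), 2 higher and 5 lower (dBET6 difference). With total counts, signs turned for parental JQ1 in HSPH1 -0.050 and for parental dBET6 in HSF1 -0.53, HSPH1 -0.28, HSPB1 -0.25. Others turned for resistant JQ1 in HSF1 -0.13, BAG3 -0.00016 and for resistant dBET6 in HSPA1A -0.37, HSPH1 -1.06, DNAJB1 -0.26. Further turns came for parental dBET6 against JQ1 in HSF1 -0.32, HSPA1B -0.33, HSPH1 -0.23 and for resistant dBET6 against JQ1 in HSPA1B -0.30, HSPH1 -0.77, DNAJB1 -0.031, HSP90AA1 -0.21. Turns also came for lines in DMSO in HSPA1A 0.048, HSP90AB1 0.021 and for JQ1 difference in HSP90AA1 -0.052. With mitochondrial mRNA scaling, the numbers that moved by over 1.5 times came to 2 higher and 2 lower (parental JQ1), 0 higher and 7 lower (parental dBET6), 1 higher and 5 lower (resistant JQ1), 1 higher and 8 lower (resistant dBET6), 1 higher and 8 lower (parental dBET6 against JQ1), 3 higher and 7 lower (resistant dBET6 against JQ1), 0 higher (lines in DMSO), 0 higher (JQ1 difference), 0 higher and 1 lower (dBET6 difference). With mitochondrial mRNA scaling, signs turned for parental JQ1 in HSPH1 -0.22, DNAJB1 -0.081 and for parental dBET6 in HSF1 -1.68, HSPA1A -0.50, HSPH1 -1.41, DNAJB1 -0.69, BAG3 -0.0072, HSP90AA1 -0.79, HSP90AB1 -0.86, HSPB1 -1.39. Others turned for resistant JQ1 in HSF1 -0.51, BAG3 -0.38, HSP90AB1 -0.075 and for resistant dBET6 in HSPA1A -1.33, HSPA1B -0.54, HSPH1 -2.06, DNAJB1 -1.25, HSP90AA1 -0.33, HSP90AB1 -0.55, HSPB1 -0.95. Further turns came for parental dBET6 against JQ1 in HSF1 -1.27, HSPA1B -1.29, HSPH1 -1.19, DNAJB1 -0.61, BAG3 -0.026, HSP90AB1 -0.56, HSPB1 -0.58 and for resistant dBET6 against JQ1 in HSPA1B -0.91, HSPH1 -1.38, DNAJB1 -0.64, HSP90AA1 -0.81, HSP90AB1 -0.48. Turns also came for lines in DMSO in BAG3 -0.16, HSPB1 -0.13 and for JQ1 difference in HSF1 -0.10, HSP90AA1 -0.29. With RLE size factors, signs turned for resistant dBET6 in HSF1 0.037 and for parental dBET6 against JQ1 in HSP90AA1 0.049. With DESeq2, signs turned for resistant dBET6 in HSF1 0.037 and for parental dBET6 against JQ1 in HSP90AA1 0.049. Others turned for lines in DMSO in HSPA1A 0.0042. With no filter, the numbers that moved by over 1.5 times came to 2 lower (parental JQ1), 2 lower (resistant dBET6), 2 lower (resistant dBET6 against JQ1). With no filter, signs turned for parental dBET6 in HSF1 -0.031 and for resistant dBET6 in HSPH1 -0.20. Others turned for resistant dBET6 against JQ1 in HSPH1 -0.10. By limma on log2(FPKM + 1), the numbers that moved by over 1.5 times came to 1 lower (resistant JQ1), 0 higher and 1 lower (JQ1 difference). By limma on log2(FPKM + 1), signs turned for resistant dBET6 in HSF1 0.22 and for resistant dBET6 against JQ1 in HSF1 0.15. Others turned for JQ1 difference in HSP90AA1 -0.18 and for dBET6 difference in HSF1 0.054. With a pseudocount of 0.1 in limma on log2(FPKM + 0.1), the numbers that moved by over 1.5 times came to 1 lower (resistant JQ1), 0 higher and 1 lower (JQ1 difference). With a pseudocount of 0.1 in limma on log2(FPKM + 0.1), signs turned for resistant dBET6 in HSF1 0.23 and for resistant dBET6 against JQ1 in HSF1 0.15. Others turned for JQ1 difference in HSP90AA1 -0.19 and for dBET6 difference in HSF1 0.056. With no filter and limma on log2(FPKM + 1), the numbers that moved by over 1.5 times came to 3 higher (parental JQ1), 1 lower (resistant JQ1), 0 higher and 1 lower (JQ1 difference), 2 higher and 1 lower (dBET6 difference). With no filter and limma on log2(FPKM + 1), signs turned for resistant dBET6 in HSF1 0.22 and for resistant dBET6 against JQ1 in HSF1 0.15. Others turned for lines in DMSO in HSPA1A 2.4e-05 and for JQ1 difference in HSP90AA1 -0.18. Further turns came for dBET6 difference in HSF1 0.054. With the replicate block, signs turned for lines in DMSO in HSPA1A 0.061. With HSPA1A and HSPA1B summed, the numbers that moved by over 1.5 times came to 1 lower (resistant JQ1). With the compared libraries alone, the numbers that moved by over 1.5 times came to 2 lower (parental JQ1). With the compared libraries alone, signs turned for parental JQ1 in HSP90AB1 0.015. Leaving out 1 library at a time gave 3 to 5 higher and 1 to 2 lower (parental JQ1), 7 to 8 higher and 1 lower (parental dBET6), 4 to 5 higher and 2 lower (resistant JQ1). The ranges were further 6 higher and 1 to 2 lower (resistant dBET6), 4 to 8 higher and 1 to 2 lower (parental dBET6 against JQ1), 7 higher and 1 to 2 lower (resistant dBET6 against JQ1). The ranges were further 2 to 4 higher and 1 lower (lines in DMSO), 0 to 1 higher and 1 to 3 lower (JQ1 difference), 4 higher and 1 to 4 lower (dBET6 difference). With 1 library left out, values that changed sign ran for parental JQ1 in HSF1 -0.20 to 0.012, HSPH1 -0.016 to 0.14, HSP90AB1 -0.13 to 0.10 and for parental dBET6 in HSF1 -0.11 to 0.24. They ran for resistant JQ1 in DNAJB1 -0.12 to 0.027 and for resistant dBET6 in HSPH1 -0.045 to -0.019. They ran for parental dBET6 against JQ1 in HSF1 -0.012 to 0.33, HSP90AA1 -0.28 to 0.054 and for lines in DMSO in HSPA1A -0.65 to 0.75, HSP90AB1 -0.17 to 0.068. They ran for JQ1 difference in HSP90AA1 -0.14 to 0.20 and for dBET6 difference in HSPA1A -1.36 to 0.57. With total counts, the number of all genes called went from 7066 to 4440 higher (parental dBET6), 3978 to 2450 higher (resistant JQ1), 6813 to 3307 higher and 7542 to 11381 lower (resistant dBET6), 6767 to 3713 higher (resistant dBET6 against JQ1). It also went from 2617 to 908 higher and 2716 to 6540 lower (dBET6 difference). With mitochondrial mRNA scaling, the number of all genes called went from 4362 to 1556 higher (parental JQ1), 7066 to 1772 higher and 7507 to 13753 lower (parental dBET6), 3978 to 595 higher and 4413 to 8325 lower (resistant JQ1), 6813 to 1389 higher and 7542 to 14150 lower (resistant dBET6). It also went from 6915 to 1910 higher and 7324 to 12713 lower (parental dBET6 against JQ1), 6767 to 2016 higher and 7401 to 12112 lower (resistant dBET6 against JQ1), 3314 to 981 higher (lines in DMSO), 692 to 58 higher and 549 to 277 lower (JQ1 difference). It also went from 2617 to 387 higher (dBET6 difference). By limma on log2(FPKM + 1), the number of all genes called went from 4362 to 2782 higher (parental JQ1), 3978 to 2590 higher (resistant JQ1), 3314 to 1529 higher and 4043 to 2488 lower (lines in DMSO), 692 to 187 higher and 549 to 114 lower (JQ1 difference). It also went from 2716 to 1320 lower (dBET6 difference). With a pseudocount of 0.1 in limma on log2(FPKM + 0.1), the number of all genes called went from 4362 to 2741 higher (parental JQ1), 3978 to 2513 higher and 4413 to 2806 lower (resistant JQ1), 3314 to 1468 higher and 4043 to 2346 lower (lines in DMSO), 692 to 146 higher and 549 to 90 lower (JQ1 difference). It also went from 2716 to 1289 lower (dBET6 difference). With no filter and limma on log2(FPKM + 1), the number of all genes called went from 4362 to 2344 higher and 4979 to 3278 lower (parental JQ1), 3978 to 1999 higher and 4413 to 2612 lower (resistant JQ1), 3314 to 1236 higher and 4043 to 2211 lower (lines in DMSO), 692 to 160 higher and 549 to 114 lower (JQ1 difference). It also went from 2716 to 1297 lower (dBET6 difference). With the compared libraries alone, the number of all genes called went from 549 to 831 lower (JQ1 difference). Leaving out 1 library took the 692 higher genes of the JQ1 difference to between 310 and 430 where it moved them by over 1.5 times. Leaving out 1 library took the 549 lower genes of the JQ1 difference to between 235 and 337 where it moved them by over 1.5 times. The share of higher genes among all called went, with total counts and mitochondrial scaling, from 55.8% to 39.1% and 17.3% (JQ1 difference), 49.1% to 12.2% and 14.2% (dBET6 difference), 46.7% to 36.5% and 21.4% (parental JQ1), 48.5% to 30.6% and 11.4% (parental dBET6), 48.6% to 32.9% and 13.1% (parental dBET6 against JQ1). For the others it went from 47.4% to 28.3% and 6.67% (resistant JQ1), 47.5% to 22.5% and 8.94% (resistant dBET6), 47.8% to 26.2% and 14.3% (resistant dBET6 against JQ1), 45% to 53.6% and 19.4% (lines in DMSO).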
